A study of Homo sapiens with 12 samples.

Results

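Alkaline phosphatases and their neighbours on the long arm of human chromosome 2, band 2q37, were followed by name through the gene counts. The members were the 9 genes ALPP, ALPPL2, ALPI, ALPL, ECEL1P2, ECEL1, PRSS56, CHRND and DIS3L2, taken by their exact symbol from a table of 26641 genes. All 9 were listed. ALPL lies on chromosome 1 and was included as the family member outside the locus. RNA came from NCCIT, an established human line of embryonal carcinoma, a germ cell tumour whose cells resemble the pluripotent early embryo. Each line was a stably selected pool carrying a doxycycline-inducible, nuclease-dead Cas9 (dCas9) on a PiggyBac transposon, together with an array of 12 guide RNAs. The dCas9-VPR fusion brings an activation domain (CRISPRa), and the dCas9-KRAB fusion brings a repression domain (CRISPRi).

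The LTR5HS Sp array pairs with LTR5HS, the long terminal repeat of the endogenous retrovirus HERVK, and brings the fusion there. These libraries are called recruitment. The control libraries carried the same fusion with either LTR5HS Sa, which has the LTR5HS guides on a scaffold of Staphylococcus aureus that the Streptococcus pyogenes dCas9 does not bind, or nontarget Sp, whose guides should pair nowhere in the genome. All 6 lines, controls included, received doxycycline for 4 days, and each gave 2 libraries, so that each fusion had 2 recruitment and 4 control libraries. Within a fusion each array was carried by its own line, so array and line cannot be told apart. Standard errors and p-values rest on libraries of these same lines. They do not measure how separately made lines with the same array would differ. Library totals ran from 13601701 to 69797411 assigned reads, dCas9-KRAB nontarget Sp replicate 2 being the deepest and the other 11 holding at most 24840708. The 10 markers of embryonal carcinoma and pluripotency were read in every fusion, but at unlike levels, given in CPM (reads of a gene scaled to a common library size). Their sum was 935 to 1604 CPM in the dCas9-VPR control libraries and 4212 to 5204 CPM in the dCas9-KRAB control libraries. Each of the 10 had a lower mean in the dCas9-VPR controls, by unlike amounts. NANOG was at 1.05 to 4.99 CPM there against 115 to 186 CPM in the dCas9-KRAB controls, and TDGF1 at 9.05 to 24.0 against 149 to 253 CPM. SALL4 differed less, with means of 100 and 153 CPM. In bulk RNA, fewer cells of a type and less RNA per cell cannot be told apart.

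Alkaline phosphatases are enzymes held on the outer cell surface by a glycosylphosphatidylinositol (GPI) anchor, and they remove phosphate groups from many substrates. ALPP encodes the placental enzyme, ALPPL2 the germ cell form known from the testis and from germ cell tumours, and ALPI the intestinal form. These 3 genes lie side by side and are close copies, whereas ALPL encodes the tissue-nonspecific enzyme of bone, liver and kidney and is high in pluripotent cells. Between and beside them lie ECEL1, an endopeptidase of neurons, ECEL1P2, a pseudogene related to it, PRSS56, a serine protease of the eye, CHRND, the delta subunit of the muscle nicotinic acetylcholine receptor, and DIS3L2, an exonuclease that degrades uridylated RNA.

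The guides of the recruitment array were searched in the GRCh38 genome, since their sites are where a fusion can be brought close to these genes. At most 1 mismatch and a following NGG were allowed, and a cluster was defined as sites of at least 3 guides within 1000 bp. A cluster of 6 guides lay at chr2:232423334-232423942, between ALPPL2 and ALPI. The sites in it are printed in the orientation of the guide with the NGG in capitals, and a substitution gives the base of the guide, its position counted from 1 at the 5′ end of the guide, and the base of the site.
LTR5HS-7, minus strand, no mismatch: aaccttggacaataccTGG
LTR5HS-4, plus strand, C12T: agcccgacacctgtaaAGG
LTR5HS-8, plus strand, no mismatch: taaagggtctgtgctgAGG
LTR5HS-9, minus strand, T11C: gacattccatcgcccaGGG
LTR5HS-1, plus strand, no mismatch: tactaagggaactcagAGG
LTR5HS-11, plus strand, G6A: gaaacacccacaggtgTGG

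The genes lie on both sides of this cluster. Distances are given from the canonical transcription start of GENCODE 44 to the centre of the cluster. ALPPL2 (chr2:232406844-232410714, plus strand, annotated as ALPG) starts 16.8 kb from it. ALPI (chr2:232456125-232460753, plus strand) starts 32.5 kb away on the other side. ECEL1P2 (chr2:232385750-232387044, minus strand) and ALPP (chr2:232378724-232382889, plus strand) start 36.6 and 44.9 kb away on the side of ALPPL2. ECEL1 (chr2:232479827-232487834, minus strand) starts 64.2 kb away on the side of ALPI. PRSS56 (chr2:232520388-232525716, plus strand) and CHRND (chr2:232525993-232536667, plus strand) start 96.8 and 102.5 kb away beyond ECEL1. DIS3L2 (chr2:231961245-232344350, plus strand) is a long gene whose start lies nearer to another cluster, 384 kb away from it at chr2:231577104-231577720. Of 24302 genes placed on the genome, 7.79% had a start within 100 kb of some cluster, so that such a distance is not common. ALPL (chr1:21509397-21578410, plus strand) starts 4079 kb from its nearest cluster, and 0 sites with up to 2 mismatches were found in the gene or within 200 kb of it. With 2 mismatches allowed for clusters too, the nearest one was 1479 kb away. The study's own list of dCas9 binding was compared by position alone. It holds an entry over the nearest cluster of each of the 9 members, and inside a member's own gene it holds one for ALPL only. The paper describes its peaks as called in lines carrying dCas9 fused to GFP, not in the lines whose RNA is read here. It also mapped Cas9 binding in cells with dCas9-VPR or dCas9-KRAB and the LTR5HS Sp array. There it reports strong signal at LTR5HS with both fusions, and no direct binding at the promoters of its LTR5HS-regulated genes. Those maps were not used here. Peaks outside the HERVK repeats are classed in the paper as off-targets, most of which its authors believe to be non-specific binding. Whether the entry inside ALPL lies in such a repeat was not tested.

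The promoters of the 3 clustered phosphatase genes are shown because ALPP and ALPPL2 changed together while ALPI, between the cluster and ECEL1, was barely read. They are windows of 300 bases around the start, from RefSeq on GRCh38.p14, which held 8 of the 9 members. Capitals mark the letters TTTAAA, the letters AGGTCA and the letters CCACACCC, or the reverse complement of the last, on either strand. The motifs were picked after looking at the sequences and do not overlap each other.
ALPP, chr2:232378501-232378800, plus strand: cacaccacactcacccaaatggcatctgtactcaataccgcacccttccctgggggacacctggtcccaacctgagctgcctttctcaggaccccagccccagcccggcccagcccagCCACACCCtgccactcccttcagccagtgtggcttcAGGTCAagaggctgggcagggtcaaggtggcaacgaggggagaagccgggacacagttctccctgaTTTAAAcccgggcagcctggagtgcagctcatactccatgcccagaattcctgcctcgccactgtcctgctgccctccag
ALPPL2, chr2:232406594-232406893, plus strand: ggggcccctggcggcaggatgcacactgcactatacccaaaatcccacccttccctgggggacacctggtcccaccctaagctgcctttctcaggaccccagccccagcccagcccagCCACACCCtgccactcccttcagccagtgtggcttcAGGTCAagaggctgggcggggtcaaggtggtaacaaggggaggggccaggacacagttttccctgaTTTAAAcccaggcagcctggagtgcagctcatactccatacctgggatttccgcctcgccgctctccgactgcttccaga
ALPI, chr2:232455903-232456202, plus strand: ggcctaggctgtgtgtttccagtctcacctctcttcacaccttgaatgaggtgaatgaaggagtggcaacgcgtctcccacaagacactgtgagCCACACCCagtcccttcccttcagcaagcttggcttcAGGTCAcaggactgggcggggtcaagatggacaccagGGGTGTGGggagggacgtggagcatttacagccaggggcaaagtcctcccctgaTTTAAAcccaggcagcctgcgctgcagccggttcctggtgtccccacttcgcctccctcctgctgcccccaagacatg

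The promoters of ALPP and ALPPL2 were identical at 90.4% of 272 aligned bases, and those of ALPP and ALPI at 87.0% of 131. All 3 held each motif. Over 35116 promoters of the same length, 12.2% held the letters TTTAAA, 13.8% held AGGTCA and 3.28% held CCACACCC, so that none of these letters sets ALPP and ALPPL2 apart from ALPI. A match of letters is a description of the window and not evidence of a bound factor.

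With CRISPRa, 6 of the 7 members that passed the filter on low counts rose: ALPP, ALPPL2, ECEL1P2, ECEL1, PRSS56 and ALPL. Of all 16271 genes tested with this fusion, 28.0% passed the threshold in either direction and 15.7% as higher. The median log2 fold change was 2.74 over the 7 tested members and -0.02 over all genes tested. The former is the value of PRSS56, which held 3 to 10 reads in control and 19 and 56 in recruitment. PRSS56 thus passed the filter only with its recruitment reads, so its place among the genes that rose is no support. With CRISPRi, 5 of the 6 tested members fell: ALPP, ALPPL2, ECEL1P2, ECEL1 and ALPL. Here 2.77% of 15520 genes passed in either direction and 1.94% as lower, and the median was -2.20 over the 6 tested members and 0.00 over all genes. The same 5 genes were therefore higher with CRISPRa and lower with CRISPRi, as were 222 of the 15145 genes tested with both fusions (1.47%). DIS3L2 passed with neither. ALPI and CHRND were removed by the filter with both fusions, and PRSS56 with CRISPRi. Both recruitment libraries lay above all 4 controls for 6 of the 7 tested members with CRISPRa, PRSS56 among them, where 25.0% of all tested genes did so. With CRISPRi they lay below all 4 controls for 5 of the 6 tested members, where 12.3% of all tested genes did so. Calls are edgeR quasi-likelihood tests with a Benjamini-Hochberg adjusted p under 0.05 over all genes, and CPM values are scaled by TMM library sizes.

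**Figure D1:**
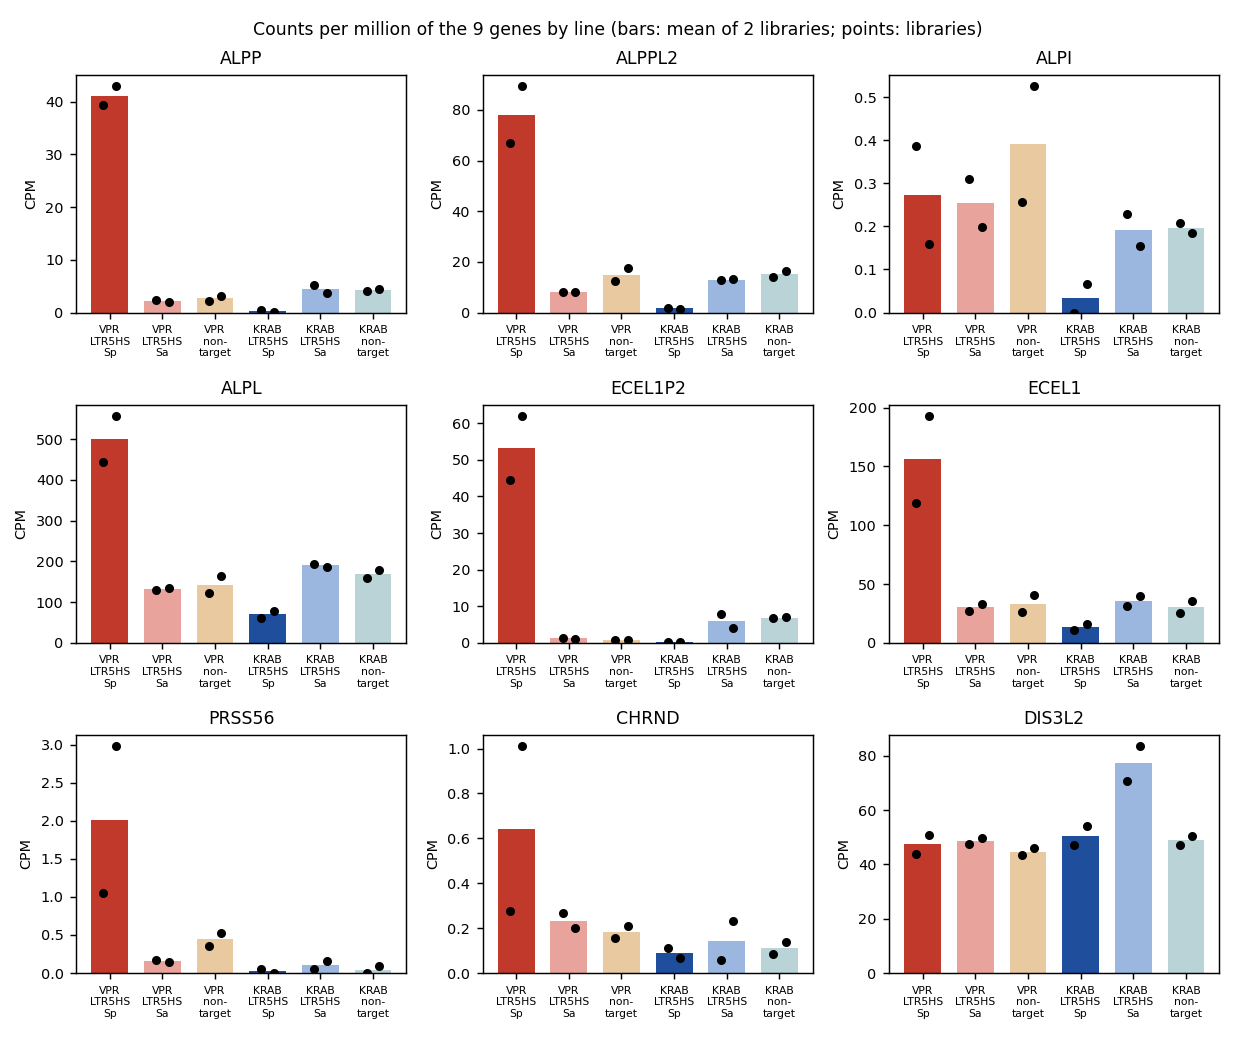
CPM of the 9 genes in the 6 lines, on linear axes from 0 with a scale for each gene. Bars are means of 2 libraries and points are the libraries. ALPP reached 39.3 and 43.0 CPM with dCas9-VPR and LTR5HS Sp against 2.09 to 3.21 CPM in its controls, whereas ALPI stayed under 1 CPM in every library.

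ALPP, the placental form, was read at a few CPM in the controls of both fusions. It was measured at 39.3 and 43.0 CPM in the dCas9-VPR recruitment libraries. In the dCas9-VPR controls it was at 2.48 and 2.09 CPM with LTR5HS Sa and at 2.26 and 3.21 CPM with nontarget Sp. The groups were far apart, with a log2 fold change of 4.04 ± 0.18 (standard error, SE; adjusted p = 4.78e-06). With dCas9-KRAB, recruitment left 0.506 and 0.135 CPM. The controls of that fusion held 5.25 and 3.80 CPM with LTR5HS Sa and 4.15 and 4.56 CPM with nontarget Sp. The dCas9-KRAB recruitment values rest on 9 and 2 reads, both below every control, and the log2 fold change was -3.71 ± 0.41 (adjusted p = 0.000812). The summed counts gave a level 13.3 times higher in control than in recruitment, with an exact 95% interval of 7.39 to 26.9 that covers counting error only. Leaving out 1 library at a time moved the log2 fold change between -4.98 and -3.12, and the lowest value was that without dCas9-KRAB LTR5HS Sp replicate 1.

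ALPPL2, the germ cell form and the gene nearest to the cluster, was the more abundant of the pair. With dCas9-VPR it was at 66.8 and 89.5 CPM in recruitment. The controls differed between arrays, with 8.23 and 8.30 CPM for LTR5HS Sa and 12.5 and 17.6 CPM for nontarget Sp. Recruitment lay above all 4 control libraries, and the log2 fold change was 2.76 ± 0.29 (adjusted p = 0.000257). The value was 3.24 against LTR5HS Sa alone and 2.39 against nontarget Sp alone, and it passed the threshold with either. With dCas9-KRAB, recruitment gave 1.97 and 1.42 CPM. Its controls were at 12.7, 13.4, 14.1 and 16.4 CPM. The groups did not overlap, and the log2 fold change was -3.04 ± 0.23 (adjusted p = 7.87e-05), an 8.25-fold lower level.

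ALPI, the intestinal form, lies between the cluster and ECEL1 and was barely transcribed. Its highest value in any library was 0.526 CPM, in a dCas9-VPR control. The dCas9-VPR recruitment libraries held 7 and 3 reads (0.386 and 0.160 CPM) and overlapped the controls, which held 4 to 10 reads. Over the summed counts, the ratio of recruitment to control was 0.845 (exact 95% interval 0.364 to 1.81, counting error only). An increase of the size seen for ALPP or ALPPL2 lies outside that interval. With dCas9-KRAB, recruitment held 0 and 1 reads against 2 to 12 in the controls, both CPM values below every control. The no-filter fit gave ALPI an adjusted p of 0.81 with CRISPRa and 0.36 with CRISPRi.

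ALPL, the tissue-nonspecific form on chromosome 1, was the most abundant of the family and moved in the same directions. In the dCas9-VPR recruitment libraries it was at 445 and 556 CPM. The controls were at 129, 136, 122 and 165 CPM. Recruitment lay above all of them, with a log2 fold change of 1.87 ± 0.14 (adjusted p = 4.88e-05), a 3.66-fold higher level. With dCas9-KRAB, recruitment gave 60.8 and 79.1 CPM and the controls 194, 187, 159 and 180 CPM. The groups were again apart, with a log2 fold change of -1.35 ± 0.14 (adjusted p = 0.000598). ALPL is thus no unchanged contrast in these libraries.

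Some markers of osteoblasts, in which ALPL is high, rose beside it with CRISPRa. The summed level of the 5 genes of that list was 2940 to 3070 CPM in dCas9-VPR recruitment and 62.8 to 94.4 CPM in its controls. Nearly all of it was COL1A1, at 2870 and 2992 CPM in recruitment and 60.3 to 90.1 CPM in control. BGLAP, at 0.662 and 0.798 CPM against 0.257 to 0.664 CPM, did not pass. IBSP was not tested and held 1 read in recruitment and 11 in control. Of the 4 that were tested, 3 rose, namely COL1A1, the main chain of bone collagen (log2 fold change 5.41 ± 0.17, adjusted p = 1.56e-06), SP7 (5.98 ± 0.48, adjusted p = 5.80e-05) and RUNX2 (1.90 ± 0.22, adjusted p = 0.000486), the last pair being transcription factors of bone. With dCas9-KRAB the same sum was 7.02 to 11.9 CPM in recruitment and 7.85 to 20.3 CPM in control, and 0 of 3 tested genes passed by edgeR, 0 at an unadjusted p under 0.05 and 0 by DESeq2. Of the 10 pluripotency genes, all tested, the sum was 1125 to 1196 CPM in dCas9-VPR recruitment, within the range of its controls. L1TD1 rose with CRISPRa (1.62 ± 0.26, adjusted p = 0.00274), SOX2 fell (-1.24 ± 0.25, adjusted p = 0.00735) and so did PRDM14 (-0.91 ± 0.19, adjusted p = 0.00899). With CRISPRi the sum was 4307 to 4316 CPM in dCas9-KRAB recruitment, again within the range of the controls, and 0 of the 10 passed by edgeR, with 4 at an unadjusted p under 0.05 and 0 by DESeq2. The part of the genes of both lists in the change of ALPL was not tested.

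Markers of the tissues that normally use the other forms were low in control, but their sums were higher in dCas9-VPR recruitment, each mostly through a single gene. The 10 placental genes summed to 23.4 to 32.5 CPM in dCas9-VPR recruitment and 7.46 to 14.7 CPM in its controls, and to 4.99 to 7.19 and 2.17 to 3.78 CPM with dCas9-KRAB. Only 2 of these 10 were tested with CRISPRa and 3 with CRISPRi. Of those tested, GATA3, a transcription factor also used outside the placenta, was the only one to pass, and it was higher with both fusions (log2 fold changes 1.48 ± 0.29 and 1.47 ± 0.29, adjusted p = 0.00617 and 0.0259), while ALPP and ALPPL2 fell with CRISPRi. The 7 intestinal genes summed to 12.4 to 13.3 CPM in dCas9-VPR recruitment and 2.35 to 4.37 CPM in its controls. Of the 2 that were tested CDX2 passed (3.72 ± 0.39, adjusted p = 0.000252). In dCas9-VPR recruitment, CDX2 held 10.6 and 11.9 CPM of this sum, and GATA3 held 21.8 and 30.7 CPM of the placental sum. Other genes of the lists went either way, with ERVW-1 at a mean of 0.571 against 0.371 CPM in control and VIL1 at 1.13 against 1.98 CPM. The part of the placental and intestinal genes in the changes of the phosphatases was not tested.

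Per kb of gene length, the order of the family was ALPL, ALPPL2, ALPP and ALPI in each of the 12 libraries. In the dCas9-VPR controls the mean levels were 53.0 CPM per kb for ALPL, 4.67 for ALPPL2, 0.845 for ALPP and 0.0987 for ALPI. In dCas9-VPR recruitment they were 193, 31.3, 13.8 and 0.0833 CPM per kb in the same order. Within the recruitment or the control libraries of either fusion, the ranges of neighbours in this order did not overlap, although ALPP and ALPI rest on 0 to 9 reads in the dCas9-KRAB recruitment libraries.

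The ratio of the pair of close copies was compared within each library. The level per kb of ALPP was 0.494 and 0.403 times that of ALPPL2 in dCas9-VPR recruitment, against 0.153 to 0.253 in its controls. In dCas9-KRAB recruitment it was 0.216 and 0.0799 times, against 0.234 to 0.346 in those controls. The values did not overlap, but those of dCas9-KRAB recruitment rest on 9 and 2 reads of ALPP and the higher of them lies next to the lowest control. The log2 ratio differed by 1.25 and by -0.999, and each exact permutation test (two-sided, 2 against 4 libraries) gave p = 0.133, the smallest that the 15 assignments allow, so that no difference could pass. The spliced sequences of ALPP and ALPPL2 were identical at 92.2% of 2448 aligned bases. Of the 150-base windows in them, the length of 1 read, 7.64% of those of ALPP and 8.49% of those of ALPPL2 occurred unchanged in the other, and 35.8% and 39.8% did so with up to 3 mismatches. With the same limit, 0% of those of ALPI, ALPL, ECEL1 and ECEL1P2 occurred in another member. Reads from windows that occurred unchanged could be counted for either gene or dropped, unless the other read of a pair told the genes apart. How reads from windows with mismatches were assigned was not tested. With ALPP, ALPPL2 and ALPI summed to 1 feature, the log2 fold change was 3.06 with CRISPRa and -3.18 with CRISPRi, and both passed.

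**Figure D2:**
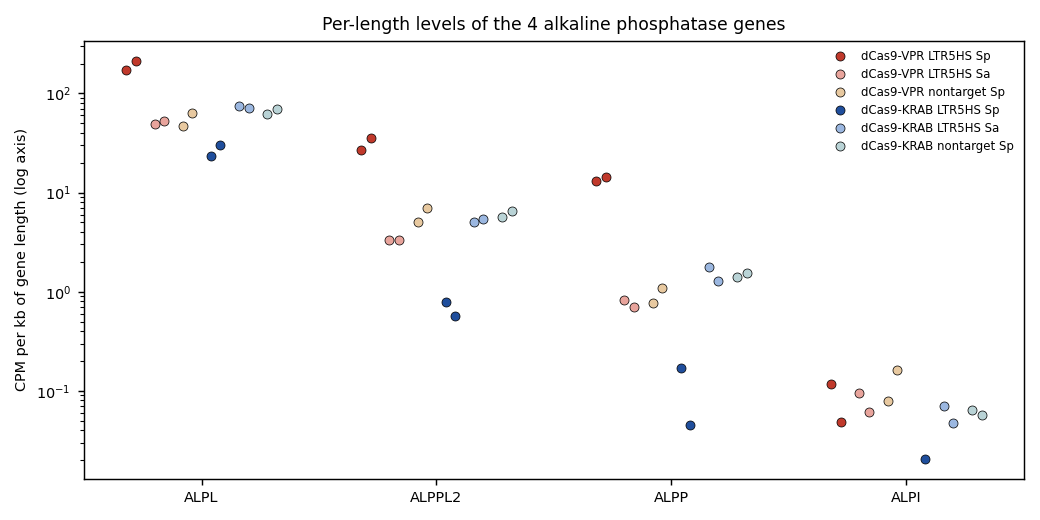
Levels of the 4 alkaline phosphatase genes per kb of gene length (CPM per kb, log axis), with 1 point per library and a colour for each line. The genes keep the order ALPL, ALPPL2, ALPP, ALPI, and recruitment of dCas9-VPR and dCas9-KRAB lies above and below the controls for the first 3; the dCas9-KRAB recruitment library with 0 reads of ALPI cannot be drawn on this axis.

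ECEL1P2, the pseudogene between ALPP and ALPPL2, gave the largest log2 fold change of the members with both fusions. It was at 44.5 and 62.0 CPM in dCas9-VPR recruitment. The controls were at 1.42, 0.994, 0.772 and 0.736 CPM. The groups were apart by more than an order of magnitude, with a log2 fold change of 5.75 ± 0.26 (adjusted p = 4.70e-06), or 53.7-fold. In dCas9-KRAB recruitment, both libraries held 2 reads (0.112 and 0.135 CPM). The controls held 7.87, 4.04, 6.73 and 6.93 CPM. The summed counts put control 54.8 times above recruitment (exact 95% interval 21.3 to 201, counting error only), and edgeR gave a log2 fold change of -5.65 ± 0.47 (adjusted p = 0.000121). The gene model is a transcript without a coding frame, and 343 of its bases aligned with spliced ECEL1 at 89.5% identity. No 150-base window of ECEL1P2 occurred in ECEL1 or in the related pseudogenes ECEL1P1 and ECEL1P3 with up to 3 mismatches.

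ECEL1, the endopeptidase gene beyond ALPI, moved in the same directions by smaller amounts. With dCas9-VPR it was at 119 and 193 CPM in recruitment and at 27.4, 33.1, 26.1 and 40.4 CPM in control. The recruitment replicates differed from each other, yet both lay above the controls, and the log2 fold change was 2.31 ± 0.22 (adjusted p = 0.000166). With dCas9-KRAB it was at 11.1 and 15.9 CPM in recruitment and at 31.7, 40.1, 25.0 and 35.2 CPM in control. The log2 fold change was -1.28 ± 0.22 (adjusted p = 0.0135). Without dCas9-KRAB LTR5HS Sp replicate 1 it was -1.04 and no longer passed (adjusted p = 0.14), and with the replicate number as a block it passed at 0.00219. The 5 neuron markers summed to 129 to 150 CPM in dCas9-VPR recruitment and 163 to 257 CPM in its controls, and TUBB3, 1 of 3 tested, fell with CRISPRa (-0.70 ± 0.20, adjusted p = 0.0344); their part in the change of ECEL1 was not tested.

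PRSS56, the eye protease gene, was read at low counts, and with dCas9-VPR it passed the filter only with its recruitment reads. With dCas9-VPR it was at 1.05 and 2.98 CPM in recruitment, from 19 and 56 reads, and at 0.177, 0.149, 0.360 and 0.526 CPM in control. Both recruitment libraries lay above the controls, and the log2 fold change was 2.74 ± 0.56 (adjusted p = 0.00752). Without dCas9-VPR LTR5HS Sp replicate 2 it was 1.79 and did not pass (adjusted p = 0.127). With dCas9-KRAB, PRSS56 held 1 and 0 reads in recruitment and 0 to 6 in control, so that a change was not detectable at this depth.

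CHRND, next to PRSS56, was lower still. It held 5 and 19 reads in dCas9-VPR recruitment (0.276 and 1.01 CPM) and 3 to 6 reads in control (0.154 to 0.266 CPM). Both recruitment values lay above the controls, one of them by little. CHRND did not pass the filter, and without a filter its log2 fold change was 1.60 (adjusted p = 0.081). In the fit without dCas9-VPR LTR5HS Sp replicate 1 it was tested and passed, at 2.25 (adjusted p = 0.032), so that this value rests on a single recruitment library. With dCas9-KRAB it held 2 and 1 reads in recruitment and 1 to 9 in control, and the values overlapped.

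DIS3L2, the exonuclease gene on the far side of ALPP, was similar in recruitment and control with dCas9-VPR. It was at 43.7 and 51.0 CPM in recruitment and at 47.3, 49.6, 43.4 and 46.0 CPM in control. The log2 fold change was 0.03 ± 0.12 (adjusted p = 0.862), with an interval of 2 SE on either side from -0.20 to 0.27. With dCas9-KRAB it was at 47.0 and 54.1 CPM in recruitment. The controls were split by array, with 70.9 and 83.5 CPM for LTR5HS Sa and 47.2 and 50.6 CPM for nontarget Sp. The log2 fold change was -0.30 ± 0.23 (adjusted p = 0.609), and it was -0.61 against LTR5HS Sa alone (adjusted p = 0.062) and 0.06 against nontarget Sp alone (adjusted p = 0.858).

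**Figure D3:**
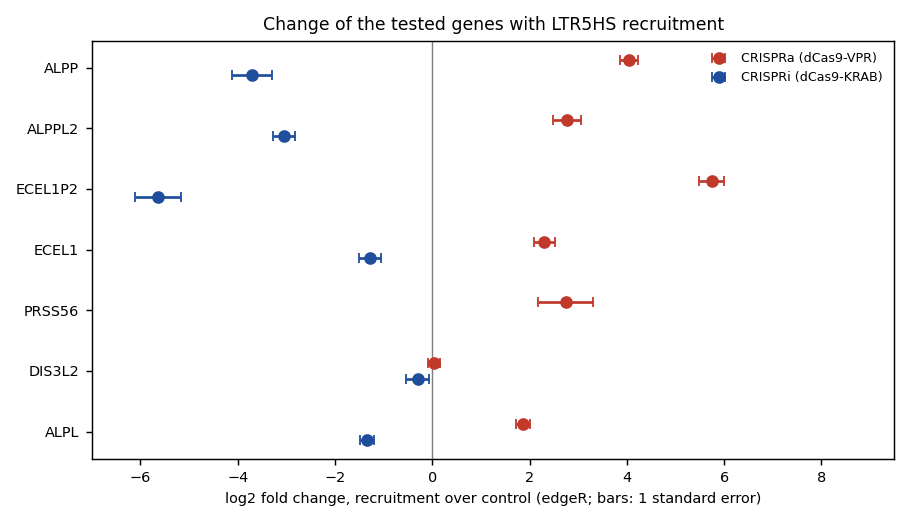
Log2 fold changes of recruitment over control for the tested members with CRISPRa (red) and CRISPRi (blue); bars are 1 standard error from edgeR. The 5 genes ALPP, ALPPL2, ECEL1P2, ECEL1 and ALPL have a red point above 0 and a blue point below 0, DIS3L2 lies near 0 with CRISPRa, and PRSS56 was tested with CRISPRa only.

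The recruitment effect was compared between the fusions in 1 fit of all 12 libraries. It differed for ECEL1P2 (difference of log2 fold changes 11.44 ± 0.50, adjusted p = 1.38e-08), ALPP (7.75 ± 0.40, adjusted p = 5.76e-08), ALPPL2 (5.85 ± 0.29, adjusted p = 3.73e-08), ECEL1 (3.59 ± 0.35, adjusted p = 1.26e-05) and ALPL (3.22 ± 0.21, adjusted p = 3.87e-07). These were 5 of the 7 members tested, where 26.0% of 16673 genes passed. They are the 5 already called in opposite directions from the same libraries, so this test is no separate support. PRSS56 gave 4.13 ± 1.58 (adjusted p = 0.066) and DIS3L2 0.31 ± 0.16 (adjusted p = 0.183). With the replicate number as a block both passed, at adjusted p = 0.031 and 0.046. PRSS56 held at most 10 reads in any library outside dCas9-VPR recruitment. It entered this fit only with its dCas9-VPR recruitment reads, so its values here are no support.

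The controls were also compared with each other. Between the LTR5HS Sa and nontarget Sp arrays with dCas9-VPR, ALPPL2 was lower with LTR5HS Sa (log2 fold change -0.86 ± 0.20, adjusted p = 0.0305), 1 of 7 members, where 5.24% of genes passed and 3.09% as lower. With dCas9-KRAB, DIS3L2 was higher with LTR5HS Sa (0.67 ± 0.13, adjusted p = 0.0392), again 1 of 7, where 0.612% of genes passed and 0.312% as higher. With the replicate block, 2269 genes instead of 874 passed with dCas9-VPR and 785 instead of 102 with dCas9-KRAB, of 16673 tested, and the calls of the members stayed as they were. Between the control lines of the fusions, 59.1% of genes passed, 30.3% as higher with dCas9-KRAB, and so did 4 of 7 members, all higher with dCas9-KRAB: ECEL1P2 (2.73 ± 0.24, adjusted p = 1.53e-06), ALPP (0.82 ± 0.19, adjusted p = 0.00273), DIS3L2 (0.39 ± 0.09, adjusted p = 0.0028) and ALPL (0.37 ± 0.12, adjusted p = 0.0151). ALPPL2 gave 0.33 ± 0.14 (adjusted p = 0.0637), PRSS56 -1.69 ± 0.76 (adjusted p = 0.0628) and ECEL1 0.04 ± 0.19 (adjusted p = 0.869). With the replicate block ALPPL2 and PRSS56 passed, at adjusted p = 0.0202 and 0.0205. The PRSS56 value rests on 0 to 6 reads per dCas9-KRAB control library and 3 to 10 per dCas9-VPR control library. That gene was in the fit only through its dCas9-VPR recruitment reads. The starting level of ECEL1P2 thus differed between the fusions, and fusion and line cannot be told apart.

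Other genes of the 2q37 region were taken from a list of 28, of which 25 were in the table. With CRISPRa, 3 of 20 tested were higher, 3 lower and 14 did not pass, against 28.0% of all genes past the threshold, and the median log2 fold change was -0.15. The largest increase was that of ITM2C, which encodes a membrane protein of the BRICHOS family and has a guide cluster of its own 21.0 kb from its start. It was at 1958 and 1802 CPM in dCas9-VPR recruitment and at 553 to 644 CPM in control (log2 fold change 1.66 ± 0.10, adjusted p = 1.19e-05), and with CRISPRi it gave 0.18 (adjusted p = 0.57). EFHD1, a calcium-binding protein gene, and PSMD1, a proteasome subunit gene, were higher by 0.42 and 0.37. NPPC, the C-type natriuretic peptide gene, fell by 1.97 on the log2 scale, NGEF, a guanine nucleotide exchange factor gene, by 1.14 and PTMA, the prothymosin alpha gene, by 0.75. With CRISPRi, 0 of 21 tested were higher (0 at an unadjusted p under 0.05 and 0 by DESeq2) and 2 were lower, against 2.77% of all genes past the threshold, with a median of -0.10. These were NMUR1, the receptor gene of neuromedin U, 47.0 kb from the more distant cluster (-1.76 ± 0.35, adjusted p = 0.0264), and PTMA (-0.48 ± 0.10, adjusted p = 0.0282). Neither CRISPRi call held in every fit without 1 library.

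**Figure D4:**
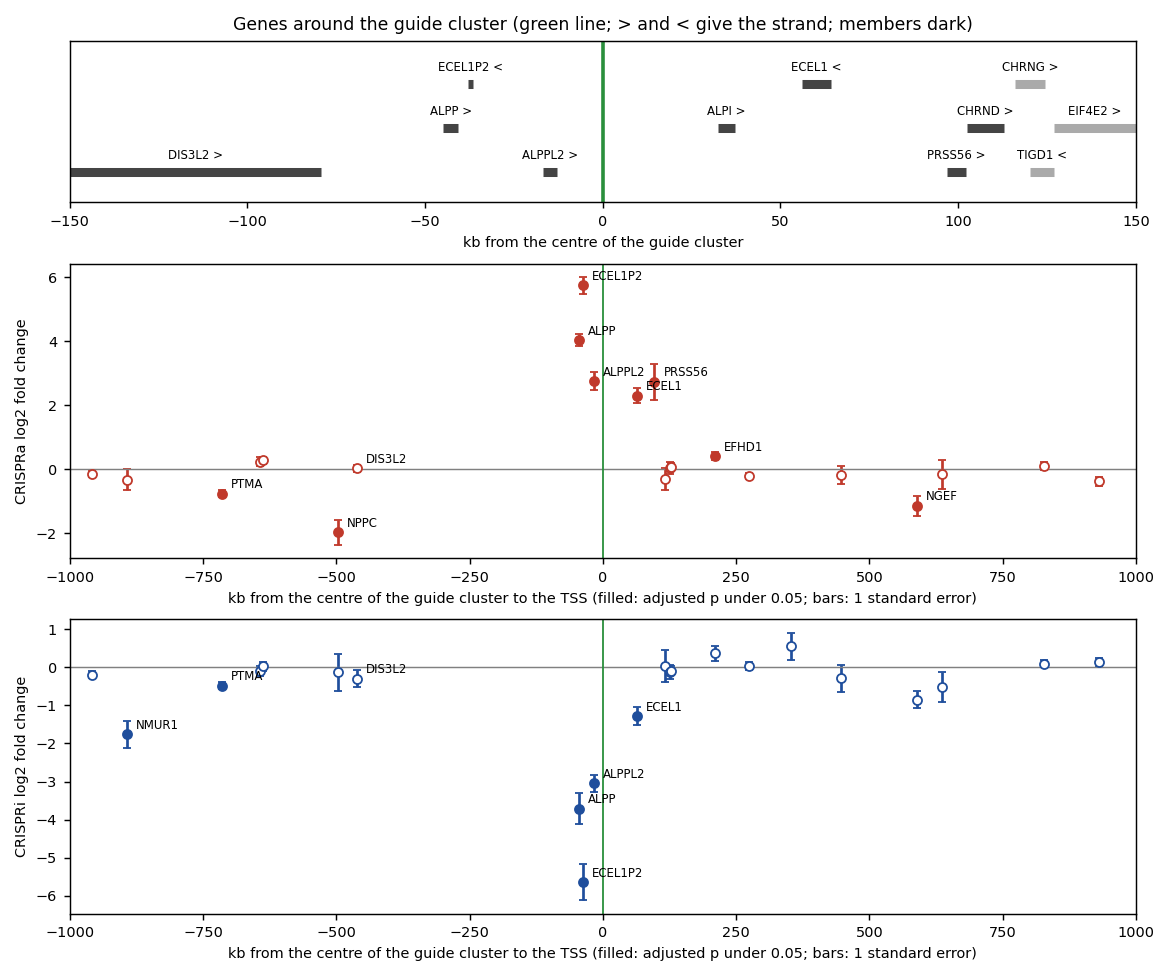
Top, genes around the guide cluster (green line), by their distance in kb from its centre, with members dark and the strand given by > or <. Below, log2 fold change with CRISPRa and CRISPRi (bars 1 standard error) against the distance of the transcription start from the same cluster, for members and listed 2q37 genes within 1000 kb on either side; filled points passed the threshold. ECEL1P2, ALPP, ALPPL2 and ECEL1 lie above 0 with CRISPRa and below 0 with CRISPRi, with PRSS56 (2.74) between ALPPL2 and ECEL1 with CRISPRa and NMUR1 (-1.76) lower than ECEL1 (-1.28) with CRISPRi.

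Genes that share a function with the members were taken from lists. The counts of called genes in these lists stand beside 28.0% of all genes with CRISPRa and 2.77% with CRISPRi. Of 29 genes of GPI anchor synthesis, 27 were tested, of which 3 passed with CRISPRa and 1 with CRISPRi. PIGZ, a mannosyltransferase gene, was the only one to pass with both fusions, at 34.8 and 34.9 CPM in dCas9-VPR recruitment against 2.78 to 8.90 CPM in control (2.63 ± 0.44, adjusted p = 0.00296) and at 2.42 and 2.50 CPM in dCas9-KRAB recruitment against 4.97 to 8.87 CPM (-1.52 ± 0.28, adjusted p = 0.0158). PIGH and PIGX were lower with CRISPRa, by 0.75 and 0.40 on the log2 scale. The median of that list was -0.24 with CRISPRa and 0.00 with CRISPRi. Of 16 genes of phosphate and vitamin B6 metabolism, 15 were tested, of which 6 passed with CRISPRa and 1 with CRISPRi. ALPL was the only one higher with CRISPRa and the only one lower with CRISPRi, while 5 were lower with CRISPRa, among them ENPP3 (-1.91 ± 0.61, adjusted p = 0.0443) and ENPP1 (-1.46 ± 0.22, adjusted p = 0.00202), which encode enzymes of extracellular nucleotide and pyrophosphate metabolism. ENPP3 held 4 and 1 reads in dCas9-VPR recruitment and lost its call without either of these libraries (-3.16 without replicate 1, adjusted p = 0.0637, and -1.23 without replicate 2, adjusted p = 0.29). The medians were -0.27 and -0.10.

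Among 7 metallopeptidases of the M13 family, to which ECEL1 belongs, 5 were tested, and ECEL1 was the only one to pass with either fusion. Of 5 subunit genes of the muscle nicotinic receptor, 3 were tested and 0 passed with either fusion by edgeR, with 1 at an unadjusted p under 0.05 with CRISPRa and 0 with CRISPRi, and 0 passed by DESeq2. Of 10 genes of DIS3 exonucleases and uridylation, 8 were tested, and DIS3L, a cytoplasmic exosome nuclease gene, was the only one to pass (-0.71 ± 0.10, adjusted p = 0.00157, with CRISPRa).

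The genes whose log2 CPM followed ALPPL2 and ALPP most closely over the 12 libraries were sought among the 15145 genes tested with both fusions. For ALPPL2 these were NRBP2 (r = 0.983), ZNF137P (0.983), ALPP (0.980), PRODH (0.975) and HLA-DQB1 (0.973). For ALPP they were PRODH (0.985), ZNF137P (0.984), VSIG10 (0.982), ITLN2 (0.981) and SERPINB9 (0.981). PRODH and ZNF137P were on both lists. The 12 libraries share their fusion and array by groups, so that these values are a description.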

How the data were processed

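RNA-seq counts of 12 NCCIT libraries were analysed. According to the submitters' processing notes and the paper's methods, poly(A) RNA was sequenced, reads were trimmed (cutadapt 1.8.1), aligned to hg38 (HISAT2 2.1.0) and assigned to genes (featureCounts 1.4.6-p2). The authors deposited raw read counts for every gene in each library; another column holds gene length in bp. The annotation and the strand setting are not given in the sources used here, so overlapping genes on opposite strands may share reads.

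Groups and replicate numbers came from the sample labels, and the labels call the replicates independent. Members and gene lists were chosen with earlier results of these data known. Tests were run in edgeR 4.0.16 (R 4.3.3; filterByExpr, TMM, quasi-likelihood F-test, Benjamini-Hochberg, threshold 0.05), recruitment against control within each fusion; the difference between fusions and the comparisons of controls came from a 6-group fit of all 12 libraries. CPM per kb used the deposited lengths. Same-numbered replicates deviated together between arrays (r = 0.203 to 0.425 over genes). The main tests did not use the replicate numbers, and a fit with the number as a block was run as an alternative. The named genes were the 9 members, the 2q37 genes past the threshold, up to 3 genes from each other list by size of change, and the 5 genes most correlated with ALPPL2 and with ALPP (log2 CPM, prior count 2). On simulated counts for CRISPRa, edgeR recovered 94 of 105 genes changed 4-fold and 45 of 95 changed 2-fold over 16271 genes. For CRISPRi it recovered 99 of 104 and 64 of 96 over 15520 genes. Of the genes called, 11 of 150 and 11 of 174 were unchanged ones. The simulated share of changed genes was far below the 28.0% called in the real CRISPRa data, so recovery there may differ. A floor of 3 reads corresponds to 0.0462 to 0.233 CPM, depending on the library, and intervals and floors cover counting error only. Alternatives were DESeq2 1.42.0 (Wald test, and its size factors in edgeR), leaving the filter out, a minimum of 10 counts per library, a threshold of 0.01, each control array alone, 1 fit of all libraries, the summed phosphatases and leaving out each library. Guide sequences came from the study's list of designed oligonucleotides and gene positions from GENCODE 44.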

Additional observations from a re-analysis of the deposited data

Results flagged for a closer look

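The recruitment effect differed between dCas9-VPR and dCas9-KRAB, tested as an interaction in edgeR over all 12 libraries, for 5 members: ECEL1P2 (11.44 on the log2 scale), ALPP (7.75), ALPPL2 (5.85), ECEL1 (3.59) and ALPL (3.22). For these 5, called in opposite directions from the same libraries, the flag follows from those calls. It also differed for PIGZ (4.33, adjusted p = 4.83e-08), ITM2C (1.48, adjusted p = 3.91e-06), DIS3L (-0.77, adjusted p = 0.00235), ENPP1 (-1.07, adjusted p = 0.00819), PSMD1 (0.48, adjusted p = 0.0167), NPPC (-1.85, adjusted p = 0.0218) and NMUR1 (1.45, adjusted p = 0.0441). For NMUR1, NPPC, PSMD1 and ENPP1, at least 1 of the other settings ended the call. Beyond the 5 members, the fusions pulled PIGZ to opposite sides of its controls.

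ENPP3 had 1 of 4 dCas9-VPR control libraries far from the others, with a gap to its neighbour of 0.867 of the whole range. Chance flags about 1 in 20 such groups.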

How the results depend on the processing

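Of the members, ALPP, ALPPL2, ECEL1P2 and ALPL kept direction and call with both fusions in every alternative in which they could be tested, and ECEL1 kept its direction. At least 10 counts in every library left ALPP and ECEL1P2 untested with CRISPRi, since fewer genes are tested there, so that 3 members instead of 5 were called with CRISPRi and 3 instead of 5 differed between fusions. Without 1 library at a time, 5 to 7 members were called with CRISPRa, 4 to 5 with CRISPRi and 5 to 6 differed between fusions. The replicate block changed no member's call with CRISPRa or CRISPRi (6 and 5 members); its other changes are given with the results. DIS3L2, which passed nowhere with CRISPRa or CRISPRi, turned sign with CRISPRa against LTR5HS Sa alone (-0.035), between -0.089 and 0.14 without 1 library, and with CRISPRi against nontarget Sp alone (0.059). NPPC with CRISPRi turned to 0.44 against nontarget Sp alone and lay between -0.40 and 0.18 without 1 library. The causes were not tested.

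The 2q37 list was less stable. With CRISPRa, 3 genes passed an adjusted p of 0.01 instead of 6 at 0.05, and 2 to 6 passed without 1 library, the fewest without dCas9-VPR LTR5HS Sp replicate 2. With CRISPRi, 0 instead of 2 passed at 0.01, 1 with either control array alone, and 0 to 2 without 1 library. The guide cluster held 3 positions with no mismatch allowed, 6 with 1 and 7 with 2. Depth limits ALPI, CHRND and PRSS56, and with dCas9-KRAB also ALPP and ECEL1P2, whose recruitment libraries hold 2 to 9 reads. Each control array has 2 libraries per fusion.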
